A study of Mus musculus with 6 samples.

Results

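The thick ascending limb of the loop of Henle and the distal convoluted tubule reabsorb salt after the proximal tubule, and 9 genes of this machinery were taken by symbol from a table of 17933 genes measured in whole mouse kidney. They are Umod, Slc12a1, Slc12a3, Kcnj1, Kcnj10, Trpm6, Pvalb, Wnk4 and Stk39, and all 9 were found. The study compared 3 control samples with 3 stone samples. All came from male C57BL/6 mice labelled WT, 6 to 8 weeks old and weighing 24 to 26 g. Stone mice received 120 mg/kg glyoxylic acid, a precursor of oxalate, into the peritoneum daily for 12 days, as a model of calcium oxalate stones, and control mice received the same volume of saline. The labels do not state that each sample came from a separate mouse, so the p-values describe the spread among these 6 samples and part or all of it may be technical.

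In the thick limb, sodium, potassium and chloride enter the cell together through the cotransporter NKCC2, encoded by Slc12a1, and potassium returns to the lumen through the channel ROMK, encoded by Kcnj1. The same cells secrete uromodulin, the product of Umod, the most abundant protein of normal urine, which is known to hinder the aggregation of calcium crystals. In the distal convoluted tubule, sodium and chloride enter through NCC, the product of Slc12a3, magnesium enters through TRPM6, and the basolateral channel Kir4.1, encoded by Kcnj10, sets the membrane voltage. Parvalbumin, the product of Pvalb, is a cytosolic calcium-binding protein of the early distal convoluted tubule. The kinase WNK4 acts on SPAK, the product of Stk39, which phosphorylates both cotransporters.

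Pvalb, of the distal convoluted tubule, was 22.3-fold lower in stone kidneys by mean FPKM while Slc12a3, of the same segment, had nearly equal means. Slc12a1, of the thick limb, was 2.08-fold lower by mean FPKM, and Umod overlapped between the groups. The log2 intervals of Slc12a1 and Umod ran from -1.87 to -0.33 and from -0.88 to 0.08. Their overlap cannot decide whether the genes differ, since both were measured in the same samples. Within samples, the ratio of Umod to Slc12a1 was higher in every stone sample than in every control sample. Its log2 difference was 0.70, with p = 0.1 by exact permutation and an adjusted p of 0.267 over the 8 ratios compared. With 3 against 3 samples that test cannot give a p below 0.1. Fewer cells of a type and less RNA per cell cannot be told apart in whole kidney tissue. Stretches upstream of the RefSeq starts of these 4 genes (GRCm38.p6, gene strand, 5′ to 3′, each from position -250 and ending before any GENCODE M21 exon, so that some hold fewer than 250 bases; for Pvalb, which has 2 starts, the outer one) are shown because the most abundant transcripts and the largest difference among the members are theirs. Capitals mark matches to AAGGTCA, the site of estrogen-related receptors, or to TATAAA, the TATA box, searched on both strands.
Pvalb, chr15:78206401-78206650, minus strand: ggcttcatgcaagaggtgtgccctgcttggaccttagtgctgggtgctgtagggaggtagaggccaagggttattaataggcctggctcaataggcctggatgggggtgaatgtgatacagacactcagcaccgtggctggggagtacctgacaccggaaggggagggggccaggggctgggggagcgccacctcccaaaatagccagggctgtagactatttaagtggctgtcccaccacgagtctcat
Slc12a3, chr8:94328958-94329200, plus strand: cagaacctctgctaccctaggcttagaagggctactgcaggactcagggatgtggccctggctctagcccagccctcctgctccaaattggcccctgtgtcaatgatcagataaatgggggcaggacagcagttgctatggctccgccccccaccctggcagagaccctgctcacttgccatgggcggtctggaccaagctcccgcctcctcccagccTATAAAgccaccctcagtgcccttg
Slc12a1, chr2:125152350-125152504, plus strand: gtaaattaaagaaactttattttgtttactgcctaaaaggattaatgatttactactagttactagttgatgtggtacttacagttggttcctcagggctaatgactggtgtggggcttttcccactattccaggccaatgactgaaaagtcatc
Umod, chr7:119479283-119479512, minus strand: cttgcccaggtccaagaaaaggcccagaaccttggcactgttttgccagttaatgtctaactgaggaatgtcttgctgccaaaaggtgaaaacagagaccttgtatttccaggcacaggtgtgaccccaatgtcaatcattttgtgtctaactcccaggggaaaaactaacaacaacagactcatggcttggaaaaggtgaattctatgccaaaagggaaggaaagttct
The Slc12a3 stretch held TATAAA at positions -32 to -27, counted back from the start. The Slc12a1 stretch ends at position -96, so the bases nearest its RefSeq start are not shown. Over the full 250 bases upstream of each start, the 9 members have 10 starts, of which 1 held TATAAA and 0 held AAGGTCA. Among 32851 mouse promoters of the same length 12.4% held TATAAA and 4.08% held AAGGTCA. These matches are descriptions of the letters and were not tested as sites.

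Expression was given as FPKM, fragments scaled to transcript length and to the library, which allows levels to be compared between genes. FPKM sums ran from 711768 to 758514 in control and from 609705 to 613885 in stone samples, and the number of sequenced fragments is unknown. Kap, a proximal tubule transcript, made up 19.3% to 23.2% of the sum in control and 1.18% to 2.26% in stone samples. Differences are stone minus control on log2(FPKM + 1), tested with limma over the 12319 genes whose mean reached 1 FPKM, and called at a Benjamini-Hochberg adjusted p below 0.05. The median of all tested genes was 0.21, and scaling by median-of-ratios size factors moved it to -0.01 and equal FPKM sums to 0.45, with 5356 genes higher and 1711 lower as deposited, 2776 and 3222 after size-factor scaling, and 8440 and 797 with equal sums. Equal FPKM sums taken without Kap gave a median of 0.18, with 4528 genes higher and 1831 lower. Values of single samples are given in the order of replicate numbers 1 to 3 throughout. A member whose call turns on these scalings is named as such.

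As deposited, 3 members were lower (Slc12a1, Kcnj1, Pvalb), 1 was higher (Stk39) and 5 did not pass. Of all tested genes 13.9% were called lower and 43.5% higher, or 57.4% in either direction. The groups did not overlap for 4 of the 9 members, against 66.3% of all tested genes. All 9 members were above the filter on low values, also when judged on either group's mean alone except Pvalb, whose stone mean was below 1 FPKM. The members' median difference was -0.17 beside 0.21 for all tested genes. It was -0.42 beside -0.01 after size-factor scaling and 0.11 beside 0.45 with equal FPKM sums.

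**Figure D1:**
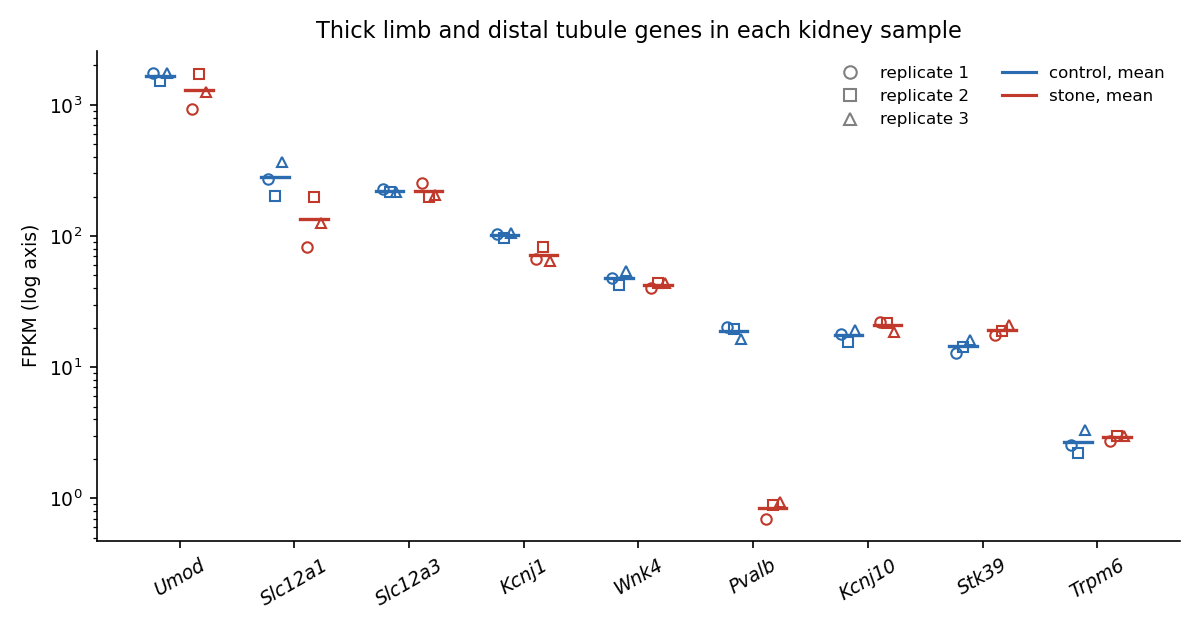
FPKM of the 9 genes (log axis) in 3 control samples (blue) and 3 stone samples (red), 1 point per sample with the shape giving the replicate number and a bar at the group mean. Pvalb falls from 16.4 to 20.2 FPKM in control samples to 0.70 to 0.93 FPKM in stone samples, and the Slc12a3 points of both groups lie between 199 and 252 FPKM.

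In control kidneys the order of mean levels was Umod, Slc12a1, Slc12a3, Kcnj1, Wnk4, Pvalb, Kcnj10, Stk39 and Trpm6. Slc12a1 and Slc12a3 overlapped in control samples, as did Pvalb with Kcnj10 and Kcnj10 with Stk39. In stone kidneys Slc12a3 stood above Slc12a1 in all 3 samples, whereas in control kidneys it did so in sample 2 only. Pvalb went from 6th or 7th of the 9 members in control samples to last, below Trpm6, in all 3 stone samples.

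Slc12a1, the thick limb cotransporter and the target of loop diuretics, was lower in stone kidneys. The gene spans 125152505 to 125230002 of chromosome 2 (plus strand). It measured 274, 203 and 365 FPKM in the controls, against 82.0, 197 and 125 FPKM in the stone kidneys. Every stone value lay below every control value, although stone sample 2 came close to control sample 2. The means were 281 ± 81.1 and 135 ± 57.9 FPKM (SD, n = 3 each), and the log2 difference was -1.10 with an SE of 0.33 (adjusted p = 0.024, limma). The call was lost with equal FPKM sums, where the difference was -0.82 (adjusted p = 0.0546, limma), with no filter on low values (adjusted p = 0.0683), and without control sample 1, control sample 3 or stone sample 3 (adjusted p = 0.0624, 0.0765 and 0.0517). Slc12a1 was the most variable of the members within groups. Its pooled within-group SD of 0.53 on the log2 scale stood at percentile 98.6 among 6706 genes whose mean reached 10 FPKM.

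Umod, the uromodulin gene, was the most abundant member in all 6 samples and did not pass the test. The gene spans 119462711 to 119479282 of chromosome 7 (minus strand). Umod measured 1749, 1524 and 1738 FPKM in the controls, against 936, 1713 and 1249 FPKM in the stone kidneys. Stone sample 2 lay within the control range and the other two stone samples lay below it. The means were 1670 ± 127 and 1299 ± 391 FPKM (SD, n = 3 each), and the log2 difference was -0.40, with a 95% interval from -0.88 to 0.08 (adjusted p = 0.129, limma). Umod was called lower after size-factor scaling, at -0.66 (adjusted p = 0.0273, limma), and without stone sample 2, at -0.62 (adjusted p = 0.0179, limma). Its coefficient of variation was 7.59% in control and 30.1% in stone samples.

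Kcnj1, the potassium channel of the thick limb and of later segments, was lower in stone kidneys, with less spread than Slc12a1. Its estimated difference was smaller than that of Slc12a1, but their within-sample ratio overlapped between the groups (exact permutation p = 0.2). The gene spans 32372493 to 32399197 of chromosome 9 (plus strand). Kcnj1 measured 104, 97.0 and 105 FPKM in the controls, against 67.1, 82.3 and 63.9 FPKM in the stone kidneys. The groups did not overlap, and the log2 difference was -0.52 with an SE of 0.10 (adjusted p = 0.00394, limma). With equal FPKM sums it was -0.25 and the call was lost (adjusted p = 0.0638, limma). With equal FPKM sums taken without Kap it was -0.56 and the call was kept (adjusted p = 0.00463, limma). Every sample could be left out without losing the call. Stone sample 2 was the highest of the stone samples for Kcnj1, Slc12a1 and Umod, as it was for 33.0% of all tested genes.

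Pvalb, the calcium-binding protein of the early distal convoluted tubule, changed by far more than any other member. The gene spans 78191114 to 78206400 of chromosome 15 (minus strand). Pvalb measured 20.2, 19.6 and 16.4 FPKM in the controls, against 0.70, 0.89 and 0.93 FPKM in the stone kidneys. The highest stone value was far below the lowest control value, and all 3 stone values were alike. The means were 18.7 ± 2.05 and 0.84 ± 0.123 FPKM (SD, n = 3 each). The log2 difference was -3.42 with an SE of 0.10 (adjusted p = 5.81e-06, limma), ranked 6th by p of 12319 genes and at percentile 0.106 by difference. A pseudocount of 0.1 in place of 1 gave -4.33, since the larger pseudocount damps a value under 1 FPKM. The call was kept under all 15 alternatives run. Pvalb is also expressed in skeletal muscle and neurons, and the 7 muscle and nerve markers analysed here summed to 4.36 to 5.49 FPKM in control and 7.05 to 12.3 FPKM in stone samples, with the muscle creatine kinase gene Ckm at 0 in all 6.

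Slc12a3, the thiazide-sensitive cotransporter and the defining transporter of the distal convoluted tubule, did not pass the test. The gene spans 94329201 to 94366214 of chromosome 8 (plus strand). Slc12a3 measured 227, 215 and 218 FPKM in the controls, against 252, 199 and 204 FPKM in the stone kidneys. The control values fell inside the range of the stone values. The log2 difference was -0.02, with a 95% interval from -0.24 to 0.21 (adjusted p = 0.892, limma). Slc12a3 was called higher with equal FPKM sums, at 0.26 (adjusted p = 0.0366, limma), and stood at -0.27 after size-factor scaling without a call (adjusted p = 0.0968, limma), so its direction follows the scaling.

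Kcnj10 and Trpm6, the potassium and magnesium channels of the same segment, did not pass either. Kcnj10 spans 172341210 to 172374085 of chromosome 1 (plus strand), and measured 18.0, 15.5 and 19.2 FPKM in the controls, against 22.1, 21.7 and 18.6 FPKM in the stone kidneys. Stone sample 3 lay within the control range of Kcnj10 and the other two stone samples above it. The Kcnj10 difference was 0.23 with a 95% interval from -0.00 to 0.47 (adjusted p = 0.0825, limma). It was called higher with equal FPKM sums, at 0.50 (adjusted p = 0.00478), with array weights, at 0.23 (adjusted p = 0.0199), and without stone sample 3, at 0.31 (adjusted p = 0.044, limma), and stood at -0.01 after size-factor scaling. Trpm6, which spans 18749983 to 18892511 of chromosome 19 (plus strand), measured 2.54, 2.23 and 3.31 FPKM in the controls, against 2.75, 3.01 and 3.01 FPKM in the stone kidneys. The stone values of Trpm6 all lay inside the control range. Its difference was 0.10, with a 95% interval from -0.20 to 0.39 (adjusted p = 0.528, limma), and turned to -0.09 after size-factor scaling and -0.29 after quantile normalization. Without control sample 2 the Trpm6 difference was 0.0056, and without control sample 3 it was 0.21.

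Of the kinases, Stk39 was higher as deposited and Wnk4 did not pass. Stk39, which encodes SPAK and spans 68210445 to 68472268 of chromosome 2 (minus strand), measured 12.9, 14.4 and 16.2 FPKM in the controls, against 17.5, 18.9 and 21.0 FPKM in the stone kidneys. The groups did not overlap, and the Stk39 difference was 0.38 with an SE of 0.10 (adjusted p = 0.0157, limma). It was 0.14 after size-factor scaling and 0.16 after quantile normalization, and the call was lost under both (limma adjusted p = 0.241 and 0.189) and without control sample 1 (adjusted p = 0.0525). Wnk4, which spans 101260567 to 101277409 of chromosome 11 (plus strand), measured 47.6, 42.5 and 53.9 FPKM in the controls, against 40.0, 43.6 and 43.7 FPKM in the stone kidneys. Stone sample 1 lay below the control range of Wnk4 and the other two stone samples lay inside it. The Wnk4 difference was -0.17, with a 95% interval from -0.39 to 0.05 (adjusted p = 0.157, limma). Wnk4 was called lower after size-factor scaling, at -0.42 (adjusted p = 0.00453, limma), and without control sample 2, at -0.25 (adjusted p = 0.0455, limma), and stood at 0.11 with equal FPKM sums. Antisense genes overlap exons of Umod and Wnk4 on the opposite strand in GENCODE M21, and no label or header states whether fragments were counted by strand, so these values are uncertain to that extent.

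**Figure D2:**
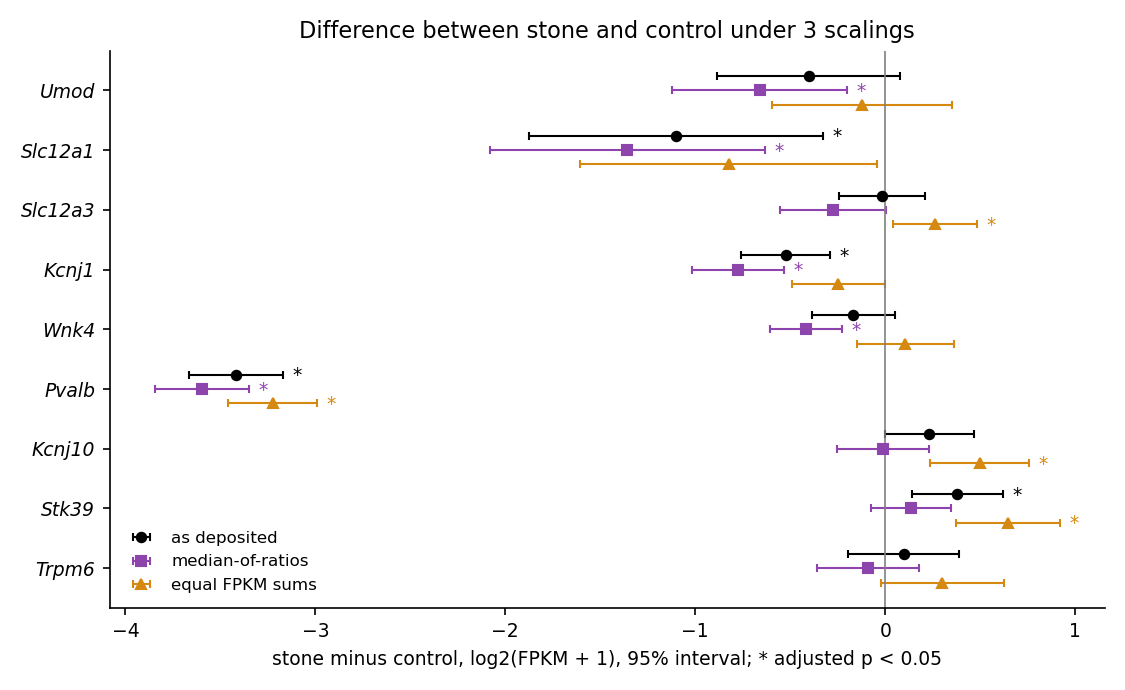
Stone minus control differences of the 9 genes on log2(FPKM + 1) with limma's 95% intervals, as deposited (black circles), after median-of-ratios size-factor scaling (purple squares) and with equal FPKM sums (orange triangles); a star marks an adjusted p below 0.05. Pvalb carries a star under all 3 scalings, at -3.42, -3.60 and -3.22, while the signs of Slc12a3, Kcnj10, Trpm6 and Wnk4 change between them.

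Ratios between members within a sample do not move when a sample is scaled by 1 factor, although quantile normalization can change them. 8 such ratios were compared with a two-sided exact permutation test, which for 3 against 3 samples cannot go below p = 0.1, so none could pass a threshold of 0.05. The ratio of Pvalb to Slc12a3 was 0.0890, 0.0912 and 0.0750 in the controls, against 0.00277, 0.00446 and 0.00456 in the stone kidneys. This is a log2 difference of -4.47, with the groups apart (exact permutation p = 0.1, adjusted p = 0.267 over the 8 ratios). The ratio of Umod to Slc12a1 was 6.38, 7.52 and 4.77 in the controls, against 11.4, 8.71 and 9.96 in the stone kidneys, so that relative to the cotransporter of the same cells uromodulin transcripts were higher in every stone sample (log2 difference 0.70, exact permutation p = 0.1, adjusted p = 0.267). The ratio of Slc12a3 to Slc12a1 was 0.826, 1.06 and 0.599 in the controls, against 3.08, 1.01 and 1.63 in the stone kidneys. Stone sample 2 lay below control sample 2 in this ratio, and the other two stone samples lay above all controls (log2 difference 1.09, exact permutation p = 0.2, adjusted p = 0.267). The ratios of Kcnj1 to Slc12a1 and of Kcnj10, Trpm6, Wnk4 and Stk39 to Slc12a3 overlapped between the groups, with log2 differences of 0.58, 0.26, 0.15, -0.15 and 0.42. Leaving out 1 sample moved Kcnj1 to Slc12a1 between 0.30 (without stone sample 1) and 0.79 (without stone sample 2). It moved Trpm6 to Slc12a3 between 0.044 (without control sample 2) and 0.32 (without control sample 3), and Wnk4 to Slc12a3 between -0.24 (without stone sample 2) and -0.0041 (without stone sample 1). The ratio of Slc12a3 to Slc12a1 ran from 0.67 without stone sample 1 to 1.47 without stone sample 2.

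**Figure D3:**
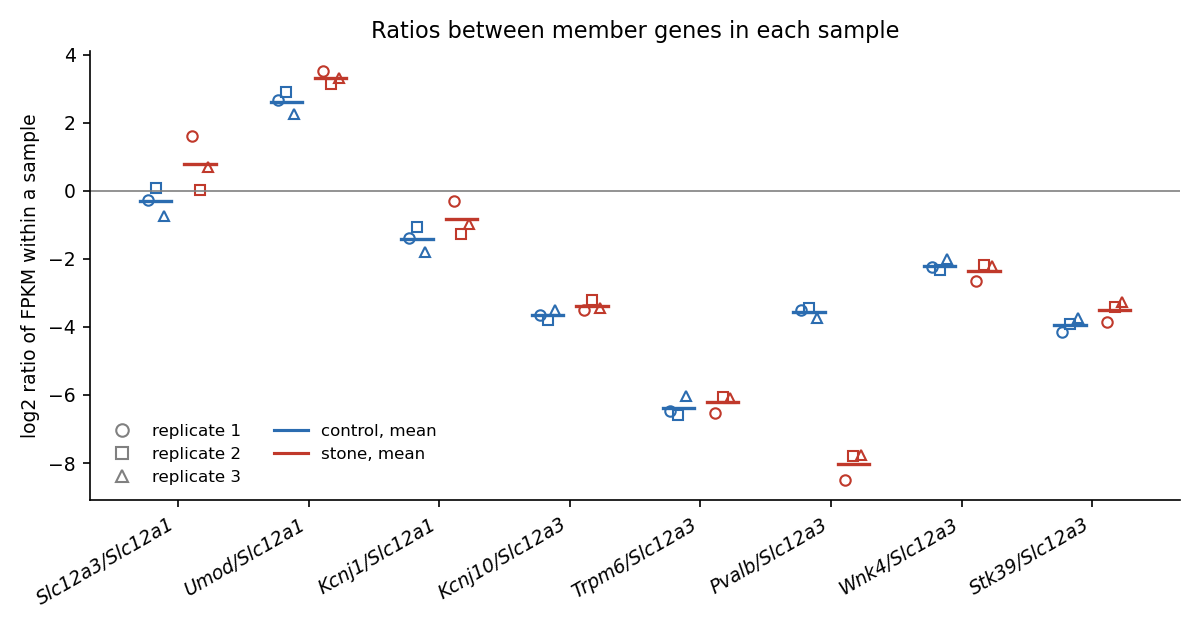
Log2 ratio of the FPKM of 2 genes within each sample, for 8 ratios, in control (blue) and stone (red) samples, with shapes for replicate numbers and bars for group means. The Pvalb/Slc12a3 and Umod/Slc12a1 points of the groups do not overlap, while those of the other 6 ratios do.

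The other genes of these segments were followed through 5 lists of 62 genes, of which 61 were in the table and 57 were tested. Of these, 15 were higher (26.3%) and 15 lower (26.3%), beside 43.5% and 13.9% of all tested genes, and their median difference was -0.01. After size-factor scaling 10 were higher and 22 lower, and with equal FPKM sums 25 were higher and 9 lower.

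Among 14 tested transport partners, 2 rose and 5 fell (1 and 7 after size-factor scaling, 5 and 3 with equal FPKM sums). Cldn10, a paracellular claudin gene, fell from 262 ± 19.9 to 150 ± 22.0 FPKM in whole kidney, which does not tell in which segment it fell. Fxyd2, the gamma subunit gene of the sodium pump, fell from 6775 ± 555 to 4281 ± 272 FPKM, while the pump's beta subunit gene Atp1b1 did not pass, at a difference of -0.03. Slc9a2, a sodium-proton exchanger gene, fell by 0.49 on the log2 scale. Casr, the calcium-sensing receptor gene, which in the thick limb restrains salt and calcium reabsorption, fell from 16.5 ± 1.06 to 11.1 ± 1.96 FPKM (adjusted p = 0.00681, limma) and lost that call with equal FPKM sums (adjusted p = 0.074, limma). Cldn16 and Cldn19, the claudin genes of calcium and magnesium reabsorption, did not pass, at differences of 0.18 and -0.09. Cldn14, the claudin gene that opposes them, was too low to be tested, and was looked at after its values were seen: it was listed at 0.07, 0 and 0 FPKM in the controls, against 1.11, 1.16 and 0.99 FPKM in the stone kidneys.

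Of 13 tested genes of WNK and SPAK regulation, 3 rose, 2 fell and 8 did not pass (1 and 3 after size-factor scaling, 8 and 2 with equal FPKM sums). Sgk1, a kinase gene induced by aldosterone and by cell stress, was at 22.8, 39.3 and 41.6 FPKM in the controls, against 205, 185 and 213 FPKM in the stone kidneys, a rise of 2.55 on the log2 scale (adjusted p = 0.000124, limma). Ppp1r1a, a protein phosphatase inhibitor gene of the thick limb and distal tubule, fell from 158 ± 7.87 to 65.3 ± 15.3 FPKM (adjusted p = 0.000614, limma). Klhl3, the adaptor through which a ubiquitin ligase removes WNK kinases, fell from 8.61 ± 0.860 to 5.48 ± 0.330 FPKM (adjusted p = 0.00185, limma). These calls of Sgk1, Ppp1r1a and Klhl3 were kept under all 15 alternatives. Oxsr1, the kinase gene most closely related to Stk39, rose by 0.43 and lost its call after size-factor scaling (adjusted p = 0.0739, limma) and quantile normalization (adjusted p = 0.0703), as Stk39 did. Cab39, the gene of a scaffold that activates both kinases, rose by 0.17, below the median of all tested genes, turned to -0.08 after size-factor scaling and lost its call under 10 of the 15 alternatives. Wnk1 did not pass, at 0.04, and Wnk2 and Wnk3 were too low to be tested.

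Of 13 tested genes of magnesium and calcium handling, 6 rose and 4 fell (4 and 4 after size-factor scaling, 7 and 3 with equal FPKM sums). Egf, the growth factor gene of the thick limb and distal convoluted tubule, whose product stimulates TRPM6, was at 408, 343 and 443 FPKM in the controls, against 63.3, 79.4 and 67.1 FPKM in the stone kidneys. It fell by 2.49 on the log2 scale (adjusted p = 1.66e-05, limma), and its receptor gene Egfr rose by 1.17 (adjusted p = 5.08e-05, limma). Trpv5, the apical calcium channel gene of the late distal convoluted tubule, rose from 6.01 ± 0.248 to 14.8 ± 3.17 FPKM, and Atp2b4, a calcium pump gene, rose by 0.81. Pcbd1, the gene of a pterin dehydratase, fell by 0.73. These 5 calls were kept under all 15 alternatives. The list holds 2 other genes of cytosolic calcium-binding proteins, Calb1 and S100g, which were named after their values were seen. S100g fell from 1488 ± 62.6 to 972 ± 198 FPKM (adjusted p = 0.00744, limma), with the groups apart and the call kept under all 15 alternatives. Calb1 went from 131 ± 11.3 to 106 ± 14.6 FPKM with overlap between the groups and was called lower (adjusted p = 0.0482, limma), a call lost under 8 of the 15 alternatives, among them equal FPKM sums at -0.03.

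Of 12 transcription factors of the segments, 1 rose, 2 fell and 9 did not pass (1 and 6 after size-factor scaling, 2 and 1 with equal FPKM sums). Irx1, a homeobox gene of the loop of Henle, was at 30.5, 30.2 and 31.7 FPKM in the controls, against 6.09, 18.5 and 13.1 FPKM in the stone kidneys (log2 difference -1.35, limma adjusted p = 0.0104). Esrrb, the gene of an estrogen-related receptor, fell by 0.53 (adjusted p = 0.0229, limma), a call lost with equal FPKM sums (adjusted p = 0.157), with no filter (adjusted p = 0.0583) and without control sample 1 or 3. Pax8, a nephron lineage gene, rose from 42.0 ± 3.29 to 96.4 ± 8.54 FPKM. Of 5 tested genes of uromodulin processing, 3 rose and 2 fell (3 and 2 after size-factor scaling, 3 and 0 with equal FPKM sums). The chaperone genes Hspa5, Pdia4 and Calr, which are expressed in all cells, rose by 1.22, 0.89 and 0.56. Hpn, the gene of the protease that releases uromodulin into urine, fell from 262 ± 22.9 to 211 ± 15.2 FPKM (adjusted p = 0.0197, limma), a call lost with equal FPKM sums (adjusted p = 0.707), after quantile normalization (adjusted p = 0.0686) and when control sample 1, control sample 2 or stone sample 3 was left out. Gp2, the gene of a close relative of uromodulin, fell by 0.39 but was not called with equal FPKM sums (adjusted p = 0.12, limma).

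**Figure D4:**
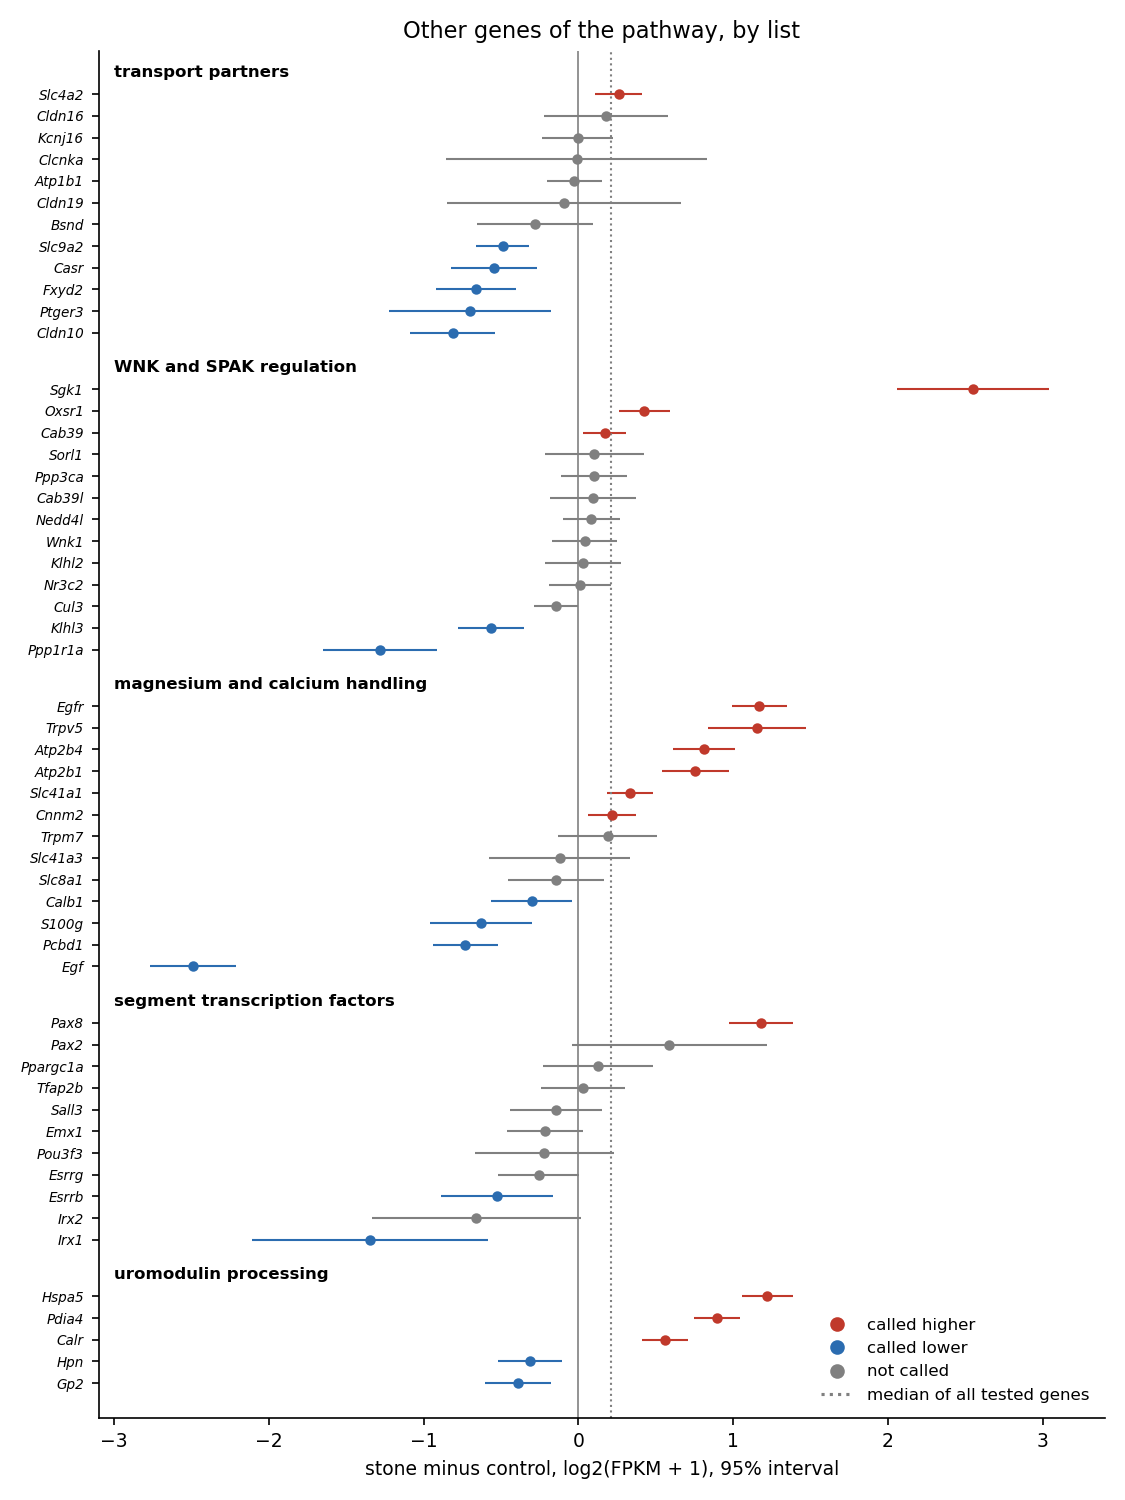
Stone minus control differences on log2(FPKM + 1), with limma's 95% intervals, of 54 of the 57 tested genes in 5 lists; red points were called higher, blue lower and grey not called, and the dotted line marks the median of all tested genes at 0.21. Egf at -2.49 and Sgk1 at 2.55 lie farthest from 0.

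For each called member, the 3 genes nearest to its profile were found by the root-mean-square distance between log2(FPKM + 1) values centred on the mean of the 6 samples, among 6605 other genes whose mean reached 10 FPKM. Casr was nearest to Kcnj1, at a distance of 0.0355, followed by Tpmt and Cyfip2. Slc12a1 had no gene closer than Gpx6, at 0.168, followed by Hsd11b1 and Ppic. Nearest to Pvalb were Acy3, Rnf24 and Akr1c14, at 0.129, 0.222 and 0.281. By mean FPKM, Acy3 went from 3741 to 402 and Rnf24 from 55.8 to 5.68, while Pvalb went from 18.7 to 0.84. The pseudocount of 1 damps the fall of Pvalb in this distance, so nearness to Pvalb does not mean an equal fold change. Nearest to Stk39 were Mknk2, Rsu1 and Rybp, at 0.0353, 0.0424 and 0.0495.

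Markers of other kidney cells moved between the groups as well, beside 43.5% of all tested genes called higher and 13.9% called lower. Of 6 markers of the thick limb and distal convoluted tubule 1 rose and 3 fell, and their sum ran from 2146 to 2534 FPKM in control and from 1474 to 2336 FPKM in stone samples. Of 10 proximal tubule markers 1 rose and 6 fell, and their sum, most of it Kap, ran from 150659 to 181724 FPKM in control and from 11890 to 17429 FPKM in stone samples. Of 6 principal cell markers 4 rose and 1 fell (sums of 244 to 253 and 308 to 515 FPKM), and of 6 intercalated cell markers 1 rose and 1 fell (104 to 108 and 96.8 to 121 FPKM). All 5 markers of tubule injury rose (519 to 629 and 8533 to 8884 FPKM), as did all 5 of fibroblasts and myofibroblasts (30.5 to 40.6 and 89.7 to 151 FPKM). So did 4 of 5 of macrophages (48.8 to 57.0 and 143 to 409 FPKM) and 4 of 5 of podocytes (45.0 to 64.0 and 78.7 to 95.3 FPKM). Of 5 endothelium markers 2 rose (49.9 to 87.2 and 77.5 to 131 FPKM), which is no more than the share of all tested genes. Of 4 macula densa markers 1 was tested and did not pass (2.63 to 3.67 and 4.57 to 6.24 FPKM), and Nos1 was at 0.28 FPKM or less in every sample. After size-factor scaling 1 of the 6 principal cell markers was called higher and 1 lower, while the counts of fibroblast, macrophage and injury markers were as before. Podocyte markers stood at 3 higher and 0 lower, intercalated cell markers at 0 and 2, and proximal tubule markers at 1 and 7. Thick limb and distal convoluted tubule markers stood at 1 and 4. With equal FPKM sums the principal cell, podocyte and intercalated cell counts were 4 and 0, 4 and 0, and 3 and 1. The proximal tubule count was 2 and 5, and that of the thick limb and distal convoluted tubule 2 and 1. Of 3 tested muscle and nerve markers 1 rose as deposited. The part of these cells in the members' differences was not tested.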

How the data were processed

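Per the labels' protocols, total RNA of kidney tissue was extracted with TRIzol and made into libraries with dUTP in the second strand. Per the submitters' processing notes, HISAT2 2.0.4 and GRCm38.p6 were used. The quantifier, its annotation and its use of strand are not stated in any label or header. The authors deposited FPKM, 1 column per sample, with 0 columns of other samples. FPKM hold no counts, so depth is unknown and no count model was used. From 53 genes whose low values were taken as 1 fragment (at 0 in some sample, otherwise at least 0.15 FPKM and within 1.25 times), a fragment was worth -0.06 to 0.11 log2 units relative to the other samples.

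The 12319 genes whose mean reached 1 FPKM (5614 were left out) were compared on log2(FPKM + 1) with limma 3.58.1 in R 4.3.3 (lmFit, eBayes with a trend), two-sided, with Benjamini-Hochberg adjustment over all tested genes. The pseudocount of 1 understates changes of low genes. The fit was tested on simulated data. Ratios were tested by exact permutation (scipy 1.17.1). Loci come from GENCODE M21 and promoters from RefSeq, both GRCm38, and all 9 members matched both by symbol. For Slc12a1 and Trpm6 the bases just after the RefSeq start were not found in a GENCODE M21 transcript of the gene. Those starts were thus not matched to a transcript. Members, 5 pathway lists and 11 marker lists were chosen with earlier results of these data known. Text names all members, up to 5 called genes of a list by p plus its leading exception, and the 3 genes most like each called member; pathway genes named without a call give context and were chosen after their values were seen. Umodl1 and Myh4 were not analysed here. A few list genes that enter the counts are not reported here by name. Alternatives were another pseudocount, no filter, 4 scalings (median-of-ratios size factors, called size-factor scaling, quantiles, and equal FPKM sums with or without Kap), no trend, array weights, a replicate block and leaving out each sample.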

Additional observations from a re-analysis of the deposited data

How the results depend on the processing

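Across 15 alternatives, Pvalb was called lower in all. Size-factor scaling gave differences of -0.66 for Umod, -0.42 for Wnk4, 0.14 for Stk39, -0.011 for Kcnj10 and -0.091 for Trpm6, with 0 members called higher and 5 lower. Equal FPKM sums gave -0.82 for Slc12a1, -0.25 for Kcnj1, 0.26 for Slc12a3, 0.50 for Kcnj10 and 0.11 for Wnk4, with 3 members higher and 1 lower and 25 and 9 pathway genes. Equal FPKM sums taken without Kap gave -1.14 for Slc12a1, -0.56 for Kcnj1, 0.35 for Stk39 and -0.05 for Slc12a3. Under that setting 1 member was higher and 3 were lower, as with the deposited values. Quantile normalization gave 0.13 for Slc12a3, -0.29 for Trpm6 and 0.16 for Stk39, with 0 members higher. Array weights called Kcnj10 higher at 0.23, making 2 members higher. With no filter, Slc12a1 stood at -1.10 without a call (unadjusted p of 0.0312 in place of 0.0117, with an SE of 0.38 in place of 0.33). Over all genes, 2776 were higher and 3222 lower after size-factor scaling, 2762 and 3108 after quantile normalization, and 8440 and 797 with equal sums; among pathway genes Cab39 turned to -0.082 after size-factor scaling. Leaving out 1 sample gave 0 to 2 members higher and 2 to 4 lower, and ranges of -0.62 to -0.19 for Umod, -1.42 to -0.79 for Slc12a1, -0.12 to 0.045 for Slc12a3, 0.15 to 0.31 for Kcnj10, 0.0056 to 0.21 for Trpm6, -0.25 to -0.083 for Wnk4 and 0.30 to 0.46 for Stk39. Causes were not tested.

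Control and stone samples of the same replicate number did not deviate together (r across genes of 0.0075, -0.22 and -0.04, and 0 of 3 stone samples nearest to their own number). With the replicate block 4861 genes were higher and 1517 lower, the members' calls stayed at 1 higher and 3 lower, Slc12a1 stood at -1.10 (limma, adjusted p = 0.0345), and Cab39 at 0.17 lost its call (adjusted p = 0.0924).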
